A study of Homo sapiens with 24 samples.

Results

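The heat shock chaperones described here were 10 genes fixed by name, HSPA1A, HSPA1B, DNAJB1, HSPH1, HSPB1, BAG3, HSPA8, HSP90AA1, HSPD1 and HSPE1, taken as the rows of the gene count table that carry these symbols, 10 of 28307 rows in all. All 10 were present and all 10 passed the filter on low counts in both cell lines. Their RNA was measured by RNA-seq in a line from a breast tumour, SUM159, and a line from a colon tumour, SW620. Each line was kept for 30 h under nifuroxazide (NIF), a nitrofuran antibiotic, or under DMSO, its solvent, and was then sorted by the ALDEFLUOR assay of aldehyde dehydrogenase activity into ALDHbr cells, labelled as cancer stem cells, and ALDHneg cells, labelled as non-cancer stem cells. This gave 8 groups with 3 libraries each, from 3 independent experiments: SUM159 ALDHbr and ALDHneg cells under DMSO or NIF, and SW620 ALDHbr and ALDHneg cells under DMSO or NIF. The final NIF concentration is not given in the sources used here. Each tumour type was represented by 1 cell line, so that a difference between lines and a difference between tumour types cannot be told apart. In such bulk samples, more RNA per cell and more cells with that RNA cannot be told apart either.

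Chaperones bind unfolded stretches of protein and help them fold or pass them on for degradation. The Hsp70 system works as a cycle, in which J proteins such as DNAJB1 load clients and stimulate ATP hydrolysis, and nucleotide exchange factors such as BAG3 and the Hsp110 protein HSPH1 release them. The stress-inducible genes are driven by heat shock factor 1 (HSF1), which binds heat shock elements, arrays of the unit GAA in alternating orientation, when unfolded protein draws chaperones away from it.

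Reference sequence upstream of 5 start sites is given for HSPA1A and HSPA1B, whose near-identity limits how reads can be assigned to either gene, for HSPB1 and HSPD1, which fell under NIF in both SW620 populations, and for DNAJB1, which was called in no NIF comparison. These 5 were chosen with the NIF results known, and whether the elements go with the response was not tested. The sequences are RefSeq's 250 bases before the start (GRCh38.p14), written 5′ to 3′ in the direction of the gene, and the capitals mark matches to the paired-unit elements GAANNTTC or TTCNNGAA. The windows are chr6:31815293-31815542 (plus strand) for HSPA1A, chr6:31827488-31827737 (plus strand) for HSPA1B, chr7:76302423-76302672 (plus strand) for HSPB1, chr2:197499841-197500090 (minus strand) for HSPD1 and chr19:14518398-14518647 (minus strand) for DNAJB1. The last 2 lie before an inner start site, within the span of the gene.
HSPA1A: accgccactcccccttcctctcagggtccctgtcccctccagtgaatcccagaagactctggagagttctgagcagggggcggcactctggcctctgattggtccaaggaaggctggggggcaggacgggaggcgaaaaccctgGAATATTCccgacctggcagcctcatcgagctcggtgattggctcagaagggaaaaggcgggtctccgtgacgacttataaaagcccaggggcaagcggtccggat
HSPA1B: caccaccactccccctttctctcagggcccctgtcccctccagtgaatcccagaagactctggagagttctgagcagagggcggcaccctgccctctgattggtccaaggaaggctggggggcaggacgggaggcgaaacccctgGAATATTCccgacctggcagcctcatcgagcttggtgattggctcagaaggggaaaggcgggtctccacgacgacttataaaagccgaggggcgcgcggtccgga
HSPB1: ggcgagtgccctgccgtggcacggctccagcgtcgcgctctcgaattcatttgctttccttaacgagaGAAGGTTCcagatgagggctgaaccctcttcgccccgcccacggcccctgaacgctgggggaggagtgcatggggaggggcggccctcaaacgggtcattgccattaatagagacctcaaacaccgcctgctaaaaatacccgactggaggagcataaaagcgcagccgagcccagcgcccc
HSPD1: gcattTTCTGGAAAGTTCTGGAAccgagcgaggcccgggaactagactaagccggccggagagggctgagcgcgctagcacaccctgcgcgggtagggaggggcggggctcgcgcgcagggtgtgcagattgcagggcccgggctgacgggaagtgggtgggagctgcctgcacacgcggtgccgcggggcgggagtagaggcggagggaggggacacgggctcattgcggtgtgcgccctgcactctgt
DNAJB1: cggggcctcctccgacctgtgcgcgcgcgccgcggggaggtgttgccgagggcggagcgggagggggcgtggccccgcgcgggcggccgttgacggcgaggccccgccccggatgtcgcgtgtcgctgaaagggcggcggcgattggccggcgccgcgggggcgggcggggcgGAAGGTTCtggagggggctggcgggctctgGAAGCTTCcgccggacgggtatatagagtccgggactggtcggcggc

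Over windows of 250 bases before and 50 after each start site, all 10 genes matched the RefSeq table, with 14 windows. Of these windows 8, from 7 of the 10 genes, held GAANNTTC or TTCNNGAA, against 13.5% of 35116 windows from 27305 genes. GAANNTTC alone was in 6.77% and TTCNNGAA alone in 7.74% of all windows. Both motifs are their own reverse complement, so that 1 search covers both strands, and the matches of adjoining motifs may overlap. An array of 3 alternating units was held by a window of HSPA8, HSP90AA1 and HSPD1 and by 0.49% of all windows. No window of HSPH1, BAG3 or HSPE1 held these letters. The HSPE1 window (chr2:197500129-197500428) stops short of the HSPD1 window with the array (chr2:197499791-197500090), so that this search does not cover the array for HSPE1. The element of HSPA1A began 106 bases before the start and that of HSPA1B 105 bases before it, and the windows were identical at 277 of 299 aligned bases (92.6%). TATAAA stood 30 and 29 bases before their starts and was in 11.5% of all windows, searched on both strands. These matches describe the letters and not a bound site.

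The genes lie apart from each other except for a pair of pairs. HSPA1A (chromosome 6, 31815543 to 31817942, plus strand) and HSPA1B (31827738 to 31830254, plus strand) are neighbours with 9796 bases between them. HSPD1 (chromosome 2, 197486584 to 197500274, minus strand) and HSPE1 (197500379 to 197503449, plus strand) face away from each other across 105 bases, and their promoter windows at the outer HSPD1 start share 204 bases. The readthrough gene HSPE1-MOB4 covers all of HSPE1 and had 0 counts in every library, and MOB4 had at most 7, so that the rule by which shared reads were assigned, not given in the sources used here, bears on the level of HSPE1. DNAJB1 (chromosome 19, 14514769 to 14560391) overlaps TECR, and HSP90AA1 (chromosome 14, 102080742 to 102139749) overlaps WDR20. HSPA8 (chromosome 11, 123057489 to 123062462) hosts 3 small nucleolar RNA genes. HSPB1 lies on chromosome 7 (76302673 to 76304292), HSPH1 on chromosome 13 (31134973 to 31162388) and BAG3 on chromosome 10 (119651380 to 119677819).

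Total counts ran from 30253187 to 43127948 per library (median 36520935). The mean log2 CPM of 10 colon epithelial markers ran from 6.59 to 7.24 in SW620 and from -1.46 to 0.71 in SUM159, and that of 10 mesenchymal markers from 0.34 to 0.95 in SW620 and from 8.47 to 9.17 in SUM159. ALDH1A1, an enzyme that the sorting assay can read, was at 135 ± 27.7 CPM in SUM159 ALDHbr and 0.480 ± 0.0618 CPM in ALDHneg cells under DMSO, and at 1314 ± 51.3 and 901 ± 19.3 CPM in SW620 (SD, n = 3 each), so that the populations of SW620 were much closer in this RNA. ALDH1A3, the other sort marker chosen, was low in SUM159, at 0.620 ± 0.233 CPM in ALDHbr and 0.202 ± 0.0655 CPM in ALDHneg cells. In SW620 it went against the sort, at 138 ± 5.35 CPM in ALDHbr and 177 ± 4.66 CPM in ALDHneg cells. That log2 difference was -0.36 ± 0.054 (edgeR, adjusted p = 0.000723). SW620 ALDHbr DMSO replicate 2 stood apart from its group, and leaving it out raised the number of genes called between ALDHbr and ALDHneg cells under DMSO from 1577 to 5487. The SUM159 libraries were taken as paired by replicate number, since those with the same number correlated after group means were removed. The SW620 libraries showed little such correlation, which does not establish that they were unpaired. Results that change with the replicate number as a block are given in both forms for SUM159.

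**Figure D1:**
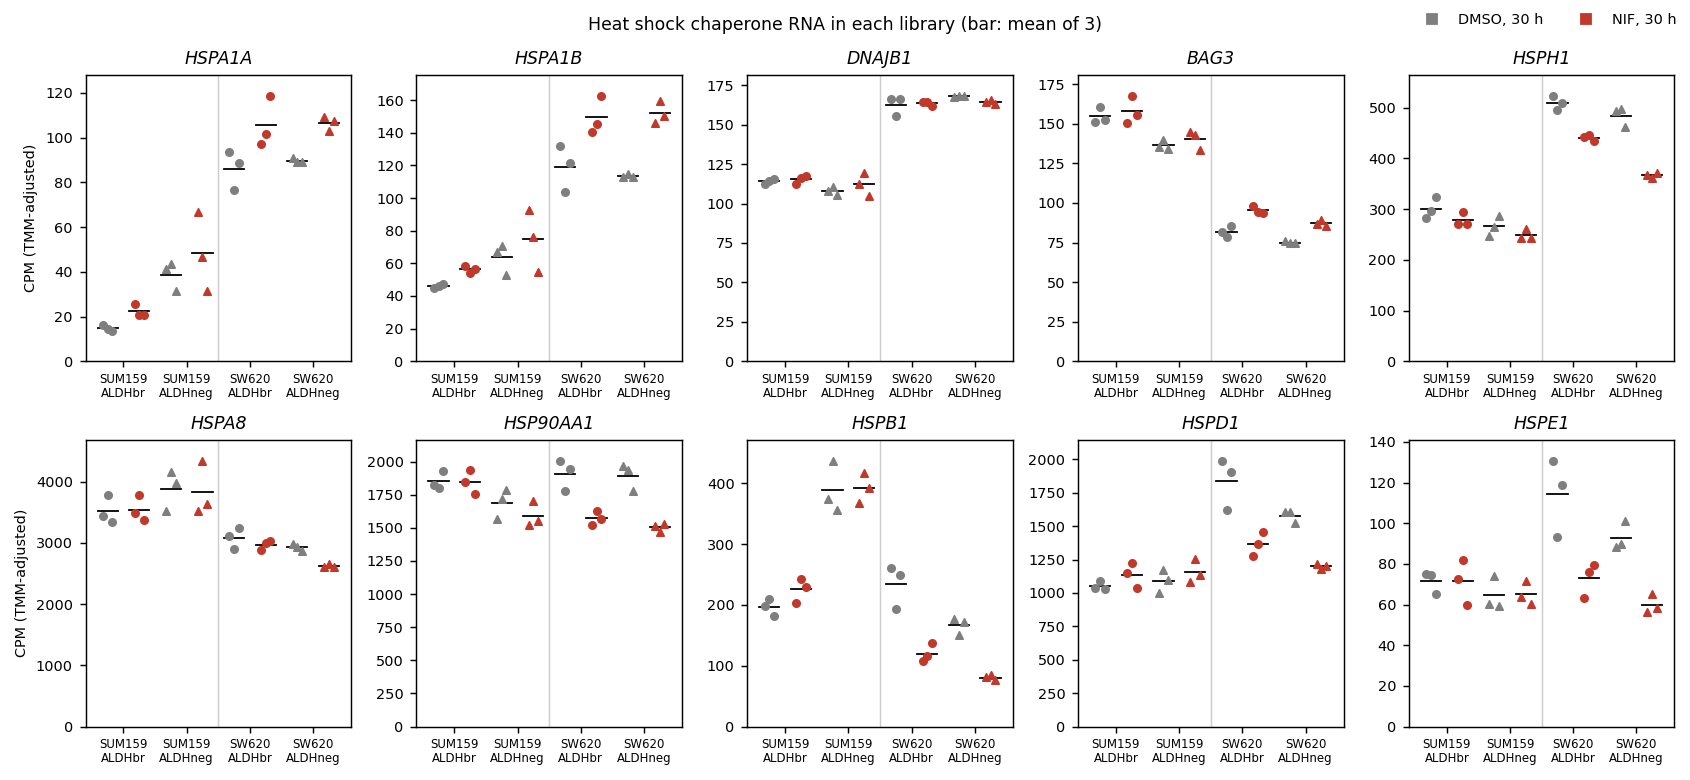
CPM (counts scaled to a common library size, TMM-adjusted, linear axis from 0) of the 10 chaperone genes in each of 24 libraries, with circles for ALDHbr, triangles for ALDHneg, grey for DMSO and red for NIF, and a bar at the mean of 3. HSPB1, HSPD1 and HSPE1 lie lower under NIF in SW620, where all 3 NIF libraries of each population are below its 3 DMSO libraries.

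The first question was whether NIF moved the RNA of chaperones. In SW620 it did so in both directions: the Hsp70 copies HSPA1A and HSPA1B and the co-chaperone BAG3 rose by a small amount, while HSPB1, HSPD1, HSPE1, HSP90AA1 and HSPH1 fell. Of the 10 genes, 3 rose and 5 fell in SW620 ALDHbr cells, where 21.4% of 13953 genes tested were called higher and 21.9% lower (edgeR quasi-likelihood test, adjusted p under 0.05). In SW620 ALDHneg cells 3 rose and 6 fell, against 22.3% of genes called higher and 22.7% lower. Without the ALDHbr DMSO library that stood apart, 8 of the 10 were again called in ALDHbr cells. Leaving it out raised the number of all genes called there from 6038 to 7136. With all libraries, the median log2 fold change of the 10 was -0.13 in ALDHbr and -0.25 in ALDHneg cells, beside -0.0070 and -0.0076 over all genes tested. In SUM159 none of the 10 was called by this test or by DESeq2 in ALDHbr or in ALDHneg cells, where 0.936% and 1.1% of 14953 genes were called higher and 2.23% and 2.2% lower. Unadjusted p was under 0.05 for 2 of the 10 in SUM159 ALDHbr and for 0 in ALDHneg cells, beside 2503 and 2510 of the 14953 genes tested. The medians of the 10 in SUM159 were 0.023 and 0.027, beside -0.0029 and 0.0033 over all genes. With the replicate block, 2 of the 10 were called in SUM159 ALDHbr cells, HSPA1A and HSPB1, both higher, where 5.77% of genes were called higher and 7.56% lower, and none in ALDHneg cells.

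**Figure D2:**
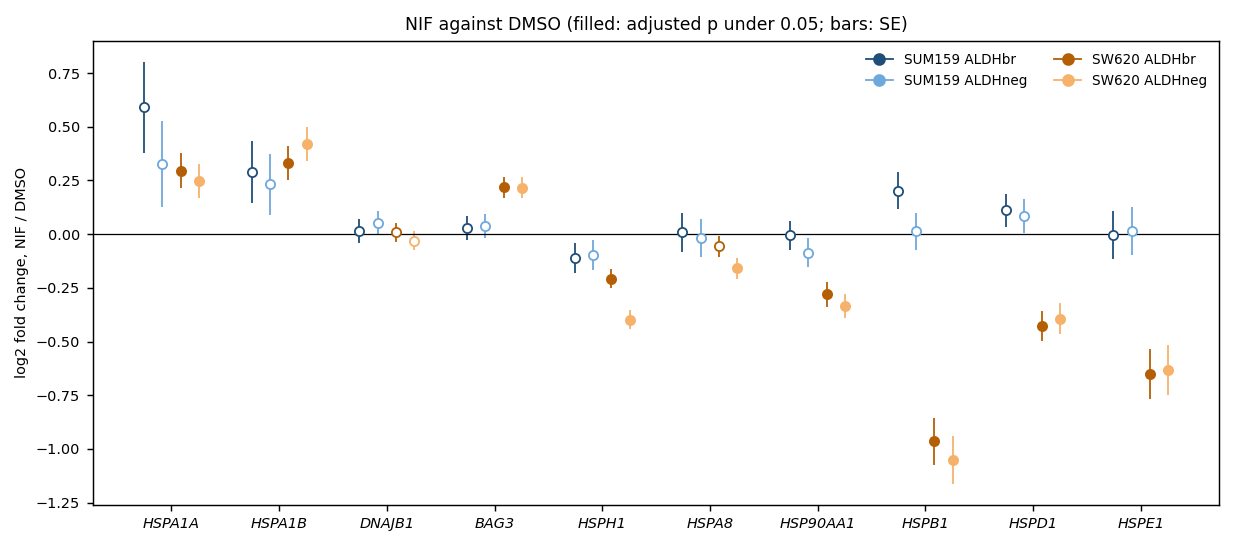
Log2 fold change of NIF over DMSO for each of the 10 genes in the 4 sorted populations (bars: standard error; filled points: adjusted p under 0.05, edgeR). Filled points are all from SW620, above 0 for HSPA1A, HSPA1B and BAG3 and below 0 for HSPH1, HSPA8 (ALDHneg), HSP90AA1, HSPB1, HSPD1 and HSPE1. The fit shown has no replicate block. With the block, HSPA1A (edgeR, adjusted p = 0.00251) and HSPB1 (0.0124) also passed in SUM159 ALDHbr cells, both higher under NIF.

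HSPA1A and HSPA1B encode the stress-inducible cytosolic Hsp70, as almost the same protein. In SUM159 ALDHbr cells HSPA1A stood at 16.3, 14.6 and 13.7 CPM under DMSO and at 25.7, 20.8 and 20.6 CPM under NIF (replicates 1, 2 and 3 here and below). ALDHneg cells held 41.3, 43.4 and 31.3 CPM under DMSO and 66.9, 46.8 and 31.3 CPM under NIF. The NIF and DMSO libraries did not overlap in ALDHbr cells and did so in ALDHneg cells, where the highest NIF library had more than 2 times the CPM of the lowest. On the log2 scale the change was 0.59 ± 0.21 (adjusted p = 0.158) in ALDHbr and 0.33 ± 0.20 (adjusted p = 0.453) in ALDHneg cells, so that neither passed the threshold. The ALDHneg value moved with single libraries, to 0.014 (adjusted p = 0.987) without NIF replicate 1 and to 0.56 (0.104) without NIF replicate 3. With the replicate block the ALDHbr difference passed (0.59 ± 0.12, adjusted p = 0.00251), and it also passed without a filter on low counts (adjusted p = 0.0261) and in a fit of only the groups compared (0.0174), while the ALDHneg difference did not with the block (0.29 ± 0.11, 0.0808). In SW620 HSPA1A stood at 93.6, 76.3 and 88.4 CPM under DMSO and 97.0, 101 and 119 CPM under NIF in ALDHbr cells. SW620 ALDHneg cells had 90.9, 88.9 and 89.2 CPM under DMSO and 109, 103 and 108 CPM under NIF. All 3 NIF libraries were above all 3 DMSO libraries in both populations, and the log2 fold change was 0.30 ± 0.081 (adjusted p = 0.00878) in ALDHbr and 0.25 ± 0.080 (adjusted p = 0.0213) in ALDHneg cells. Both calls were lost in a fit of all 24 libraries (adjusted p = 0.167 and 0.235), that in ALDHbr cells in a fit of only the groups compared (0.0537) and that in ALDHneg cells without NIF replicate 1 (0.0701) or NIF replicate 3 (0.0604).

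HSPA1B followed its copy. SUM159 ALDHbr cells had 45.1, 45.9 and 47.4 CPM under DMSO and 58.6, 54.3 and 56.3 CPM under NIF, again without overlap. In ALDHneg cells it stood at 67.1, 70.7 and 53.1 and 92.9, 76.3 and 54.5 CPM, with overlap. Log2 fold changes were 0.29 ± 0.14 (adjusted p = 0.338) and 0.23 ± 0.14 (adjusted p = 0.457), and a fit of only the groups compared called the first (adjusted p = 0.0254) while the block did not (0.0705). The ALDHneg value was 0.041 (adjusted p = 0.941) without NIF replicate 1 and 0.41 (0.0838) without NIF replicate 3. Within SUM159 replicate pairs HSPA1B was higher under NIF in 6 of 6, with log2 differences from 0.038 to 0.47. These pairs cover both populations at 3 replicate numbers, so that they are not 6 independent pairs. The share of all genes with 6 of 6 was not computed. In SW620 ALDHbr cells the DMSO libraries held 132, 104 and 122 CPM and the NIF libraries 141, 146 and 163 CPM. SW620 ALDHneg libraries held 113, 115 and 113 CPM under DMSO and 146, 159.7 and 151 CPM under NIF. The groups did not overlap in either population, and the log2 fold change was 0.33 ± 0.079 (adjusted p = 0.00385) in ALDHbr and 0.42 ± 0.079 (adjusted p = 0.000577) in ALDHneg cells, calls that held under every alternative run.

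Since reads shared by the 2 copies cannot be assigned with certainty, their sum was tested as 1 feature. It rose by 0.32 ± 0.076 (log2, adjusted p = 0.00413) in SW620 ALDHbr and by 0.35 ± 0.076 (0.00193) in ALDHneg cells, and its differences of 0.37 ± 0.16 (0.268) and 0.27 ± 0.16 (0.442) in SUM159 did not pass. HSPA1A made up 22.4 to 26.6% of the pair's CPM in SUM159 ALDHbr cells under DMSO and 26.8 to 30.5% under NIF, below the 37.1 to 38.1% and 36.4 to 41.9% in ALDHneg cells. In SW620 the share ran from 39.2 to 44.5% over all 12 libraries.

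Immediate early genes, which dissociation and sorting can raise, moved beside HSPA1A, HSPA1B and BAG3. Of 12 such genes (among them FOS, JUN and EGR1) 9 rose and 1 fell under NIF in each SW620 population, beside 21.4% and 22.3% of all genes called higher and 21.9% and 22.7% lower. Their summed CPM went from a range of 566 to 634 to one of 830 to 889 in ALDHbr cells and from 548 to 561 to 790 to 807 in ALDHneg cells. In SUM159 the sums ran from 787 to 1066 under DMSO and 884 to 1155 under NIF in ALDHbr cells, and from 878 to 1068 and 978 to 1280 in ALDHneg cells, with 1 and 2 of the 12 called higher, beside 0.936% and 1.1% of all genes. Their part in the result was not tested.

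DNAJB1, the J protein that partners inducible Hsp70, was called in none of the 4 NIF comparisons. In SUM159 ALDHbr cells it stood at 113, 114 and 115 CPM under DMSO and 112, 116 and 118 CPM under NIF. ALDHneg cells of that line had 108, 111 and 105 and 112, 119 and 105 CPM. In SW620 the ALDHbr libraries held 166, 155 and 166 CPM under DMSO and 164, 165 and 162 CPM under NIF. The widest ranges were those of SUM159 ALDHneg cells under NIF and of SW620 ALDHbr cells under DMSO, where the low value was that of the library that stood apart. SW620 ALDHneg libraries held 167, 168 and 168 CPM under DMSO and 164, 166 and 163 CPM under NIF, the 1 pair of groups that did not overlap, with NIF lower. Its change was 0.0094 in SW620 ALDHbr cells (95% interval -0.086 to 0.10, adjusted p = 0.888) and -0.030 in ALDHneg cells (-0.12 to 0.065, 0.613). In SUM159 the intervals ran from -0.10 to 0.13 in ALDHbr and from -0.065 to 0.17 in ALDHneg cells.

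BAG3, which links Hsp70 to selective autophagy as well as releasing its clients, rose in SW620. Its ALDHbr libraries had 81.8, 78.4 and 85.4 CPM under DMSO and 98.1, 94.1 and 93.8 CPM under NIF. ALDHneg libraries of SW620 had 76.0, 74.4 and 74.4 and 86.7, 89.0 and 85.4 CPM. No NIF library overlapped a DMSO library, the log2 fold change was 0.22 ± 0.049 (adjusted p = 0.0024) and 0.22 ± 0.049 (adjusted p = 0.00243), and both calls held under every alternative run. In SUM159 ALDHbr cells BAG3 stood at 151, 161 and 152 CPM under DMSO and 151, 168 and 155 CPM under NIF. SUM159 ALDHneg cells had 136, 140.0 and 134 and 145, 143 and 134 CPM. The groups overlapped in both populations of that line (95% intervals -0.091 to 0.15 and -0.082 to 0.16 on the log2 scale).

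HSPH1, the Hsp110 exchange factor, fell in SW620. It went from 524, 495 and 510.0 CPM to 442, 446 and 435 CPM in ALDHbr cells. In ALDHneg cells it went from 493, 497 and 463 to 368, 362 and 372 CPM. It changed by -0.21 ± 0.045 (adjusted p = 0.002) (log2) in ALDHbr and -0.40 ± 0.045 (adjusted p = 6.77e-06) in ALDHneg cells, with no overlap in either. SUM159 ALDHbr cells had 283, 296 and 323 CPM under DMSO and 271, 294 and 272 CPM under NIF. SUM159 ALDHneg cells had 248, 264 and 286 and 242, 261 and 242 CPM. These groups overlapped, and the 95% intervals of the log2 fold change ran from -0.26 to 0.035 and from -0.24 to 0.049. Within SUM159 replicate pairs HSPH1 was lower under NIF in 6 of 6, with log2 differences from -0.25 to -0.013, and it was not called with the block. As for HSPA1B, these are not 6 independent pairs, and the share of all genes with 6 of 6 was not computed.

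HSPA8, the constitutive Hsp70 of every cell, moved least of the genes called. SW620 ALDHneg cells had 2988, 2935 and 2865 CPM under DMSO and 2607, 2657 and 2611 CPM under NIF. In SW620 ALDHbr cells it had 3114, 2897 and 3239 and 2877, 2990.2 and 3031 CPM. The first pair of groups did not overlap and the second did (-0.16 ± 0.049, adjusted p = 0.0177, and -0.056 ± 0.049, adjusted p = 0.387), and the ALDHneg call was lost in a fit of all 24 libraries (0.13) and without NIF replicate 1 (0.0619), NIF replicate 3 (0.0591) or DMSO replicate 1 (0.0635). SUM159 ALDHbr cells had 3440.3, 3777 and 3347 CPM under DMSO and 3479, 3777 and 3365 CPM under NIF. SUM159 ALDHneg cells had 3512, 4157 and 3975 and 3521, 4335 and 3642 CPM. Replicate 2 was the highest of 3 in all 4 of these SUM159 groups.

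HSP90AA1 encodes the inducible cytosolic Hsp90, which matures kinases and steroid receptors. In SW620 ALDHbr cells it fell from 2004, 1776 and 1947 CPM to 1522, 1624 and 1569 CPM. SW620 ALDHneg cells went from 1966, 1936 and 1780.3 to 1514, 1466 and 1531 CPM. Its log2 fold change was -0.28 ± 0.057 (adjusted p = 0.00115) and -0.33 ± 0.057 (adjusted p = 0.000265), without overlap in either population. SUM159 ALDHbr cells had 1825, 1803 and 1931 CPM under DMSO and 1848, 1936 and 1754 CPM under NIF. SUM159 ALDHneg cells had 1564, 1715 and 1787 and 1519, 1702 and 1549 CPM. The 95% intervals in SUM159 ran from -0.15 to 0.14 in ALDHbr and from -0.23 to 0.060 in ALDHneg cells on the log2 scale.

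HSPB1, the small heat shock protein Hsp27 that holds unfolded clients without ATP, had the largest fall of the 10 in both SW620 populations. Its ALDHbr libraries stood at 261, 193 and 249 CPM under DMSO and 108, 115 and 137 CPM under NIF. ALDHneg libraries stood at 177, 149.8 and 172 and 80.7, 84.1 and 75.9 CPM. These were log2 fold changes of -0.96 ± 0.11 (adjusted p = 8.46e-06) and -1.05 ± 0.11 (adjusted p = 3.33e-06), that is, to 0.512 and 0.483 of the DMSO level. In SUM159 ALDHbr cells it had 197, 209 and 181 CPM under DMSO and 204, 243 and 229.8 CPM under NIF. SUM159 ALDHneg cells had 374, 436 and 356 and 367, 417 and 393 CPM. The SUM159 ALDHbr difference of 0.20 ± 0.087 (adjusted p = 0.25) did not pass without the replicate block and passed with it (0.20 ± 0.052, adjusted p = 0.0124), and its libraries were higher under NIF in 3 of 3 replicate pairs.

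HSPD1 (Hsp60) and HSPE1 (Hsp10) form the mitochondrial chaperonin, a folding chamber and its lid. In SW620 ALDHbr cells HSPD1 went from 1988, 1619 and 1907 CPM to 1274, 1370.5 and 1456 CPM. HSPE1 went from 131, 93.2 and 119 to 63.0, 76.0 and 79.5 CPM there. In ALDHneg cells HSPD1 went from 1606, 1603 and 1526 to 1221, 1183 and 1202 CPM. Every NIF library of SW620 was below every DMSO library of its population for HSPD1, also with the DMSO library that stood apart, the lowest of its group. HSPE1 in SW620 ALDHneg cells went from 88.2, 89.9 and 101 to 56.2, 65.4 and 58.4 CPM. The log2 fold change of HSPD1 was -0.43 ± 0.071 (adjusted p = 0.00024) in ALDHbr and -0.39 ± 0.071 (adjusted p = 0.000418) in ALDHneg cells. That of HSPE1 was -0.65 ± 0.12 (adjusted p = 0.000425) and -0.63 ± 0.12 (adjusted p = 0.000487). Across the 12 SW620 libraries the log2 CPM of the 2 genes had a Pearson r of 0.97, and across the 12 SUM159 libraries 0.56, as a description over libraries that share groups. In SUM159 ALDHbr cells HSPD1 stood at 1038, 1092 and 1027 CPM under DMSO and 1150.0, 1225 and 1034 CPM under NIF, and HSPE1 at 75.1, 74.3 and 65.0 and 72.4, 81.8 and 59.9 CPM. SUM159 ALDHneg cells had 1003, 1172 and 1096 and 1084, 1255 and 1132 CPM of HSPD1, and 60.2, 74.0 and 59.4 and 63.9, 71.4 and 60.4 CPM of HSPE1. All of these SUM159 groups overlapped between DMSO and NIF. Within SUM159 replicate pairs HSPD1 was higher under NIF in 6 of 6, with log2 differences from 0.0099 to 0.17, and it was not called with the block. Here too the 6 pairs are not independent, and the share of all genes with 6 of 6 was not computed.

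Whether the response differed between the cell lines was tested as the NIF effect in SW620 minus that in SUM159, in a fit of all 24 libraries. In ALDHbr cells 4 of the 10 genes had a lower response in SW620 and none a higher one, where 10.7% of 16271 genes were called lower and 12.4% higher. The differences were -1.17 ± 0.15 (adjusted p = 3.49e-06) for HSPB1, -0.54 ± 0.11 (adjusted p = 0.000827) for HSPD1, -0.65 ± 0.17 (adjusted p = 0.00736) for HSPE1 and -0.28 ± 0.090 (adjusted p = 0.027) for HSP90AA1. The last call was lost when any of 8 of the 12 libraries was left out (adjusted p up to 0.0929, without SUM159 ALDHbr NIF replicate 2). In ALDHneg cells 4 were lower and none higher, against 10.5% and 11.9% of genes. These were HSPB1 (-1.06 ± 0.15, adjusted p = 1.19e-05), HSPD1 (-0.47 ± 0.11, adjusted p = 0.00261), HSPE1 (-0.64 ± 0.17, adjusted p = 0.00804) and HSPH1 (-0.29 ± 0.084, adjusted p = 0.0122). The HSP90AA1 difference in ALDHneg cells was -0.24 ± 0.090 (adjusted p = 0.0588), and it passed in 7 of 19 alternatives, the replicate block among them (0.036). For the Hsp70 copies the 95% interval of the difference in ALDHbr cells ran from -0.80 to 0.20 (HSPA1A) and from -0.33 to 0.41 (HSPA1B), so that a response of the same size in both lines and a sizeable difference were both within it. The BAG3 response was higher in SW620 by 0.19 ± 0.075 (adjusted p = 0.0739) in ALDHbr and 0.18 ± 0.075 (adjusted p = 0.0816) in ALDHneg cells, and passed in 7 of 19 alternatives in ALDHbr (adjusted p down to 0.0128, and 0.0471 with the block) and in 3 of 19 in ALDHneg cells (down to 0.025).

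The response was also compared between ALDHbr and ALDHneg cells of a line by an interaction term. No gene of the 10 was called in SUM159, where 0% of genes were called by edgeR, 238 genes had an unadjusted p under 0.05 (0 of the 10) and DESeq2 called 2 genes. None was called in SW620, where 1 gene was (0.00717%) and DESeq2 called 29 genes. There 771 of the 13953 genes tested had an unadjusted p under 0.05, with 1 of the 10 among them. That gene was HSPH1, whose fall was smaller in ALDHbr cells by 0.19 ± 0.064 on the log2 scale (adjusted p = 0.673).

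Next, ALDHbr cells were compared with ALDHneg cells of the same line. In SUM159 the ALDHbr cells held less HSPA1A, HSPA1B and HSPB1 and slightly more BAG3 under DMSO, 3 genes lower and 1 higher, where 12.3% of genes were called lower and 10.7% higher. HSPA1A differed by -1.38 ± 0.21 (adjusted p = 0.000212), at 0.385 of the ALDHneg level, and no ALDHbr library reached the lowest ALDHneg library. Summed with HSPA1B, which can share its reads, the difference was smaller, at -0.74 ± 0.16 (adjusted p = 0.00375). HSPA1B differed by -0.46 ± 0.14 (adjusted p = 0.0317) and HSPB1 by -0.99 ± 0.088 (adjusted p = 9.78e-07), both without overlap. BAG3 differed by 0.18 ± 0.057 (adjusted p = 0.0339). With the replicate block 8 of the 10 were called, 4 higher and 4 lower, where 17.9% of genes were called higher and 18.2% lower in that fit, among them HSPH1 at 0.18 ± 0.051 (0.00845) and HSP90AA1 at 0.14 ± 0.050 (0.0396) above ALDHneg cells. HSPA8 at -0.14 ± 0.046 (0.0227) and HSPE1 at 0.15 ± 0.059 (0.0473) were the other additions. The calls of HSPA1A and HSPB1 held when any 1 library was left out. That of HSPA1B was lost without DMSO replicate 1, 2 or 3 of the ALDHbr group or replicate 1 or 2 of the ALDHneg group (0.0612 to 0.114), and that of BAG3 without any ALDHbr DMSO replicate or ALDHneg DMSO replicate 1 or 3 (0.0564 to 0.106).

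Under NIF the same contrast in SUM159 gave 2 genes lower and 2 higher, against 12% and 9.95% of genes. HSPA1A was at -1.11 ± 0.20 (adjusted p = 0.00105), the sum with HSPA1B at -0.64 ± 0.16 (adjusted p = 0.0094) and HSPB1 at -0.80 ± 0.087 (adjusted p = 8.39e-06). BAG3 was at 0.17 ± 0.057 (adjusted p = 0.0436) and HSP90AA1 at 0.22 ± 0.069 (adjusted p = 0.0352). HSPA1B, at -0.41 ± 0.14 (adjusted p = 0.0553), passed with the block (0.00434), with which 6 genes were called, 3 in each direction, where 16.9% of genes were called higher and 18.3% lower, HSPH1 at 0.16 ± 0.051 (0.0148) being the other addition. Single libraries moved HSPA1B, which was at -0.21 (0.317) without ALDHneg NIF replicate 1 and at -0.59 (0.00161) without ALDHneg NIF replicate 3. BAG3 lost its call without 5 and HSP90AA1 without 4 of the 6 libraries. In the whole set of 10 mesenchymal markers, 6 were lower in SUM159 ALDHbr than ALDHneg cells under DMSO and none higher, where 12.3% of genes were called lower and 10.7% higher. Their summed CPM under DMSO were 10323 to 12126 against 11982 to 13894. Under NIF 5 of these markers were lower and none higher. Their part in the result was not tested.

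**Figure D3:**
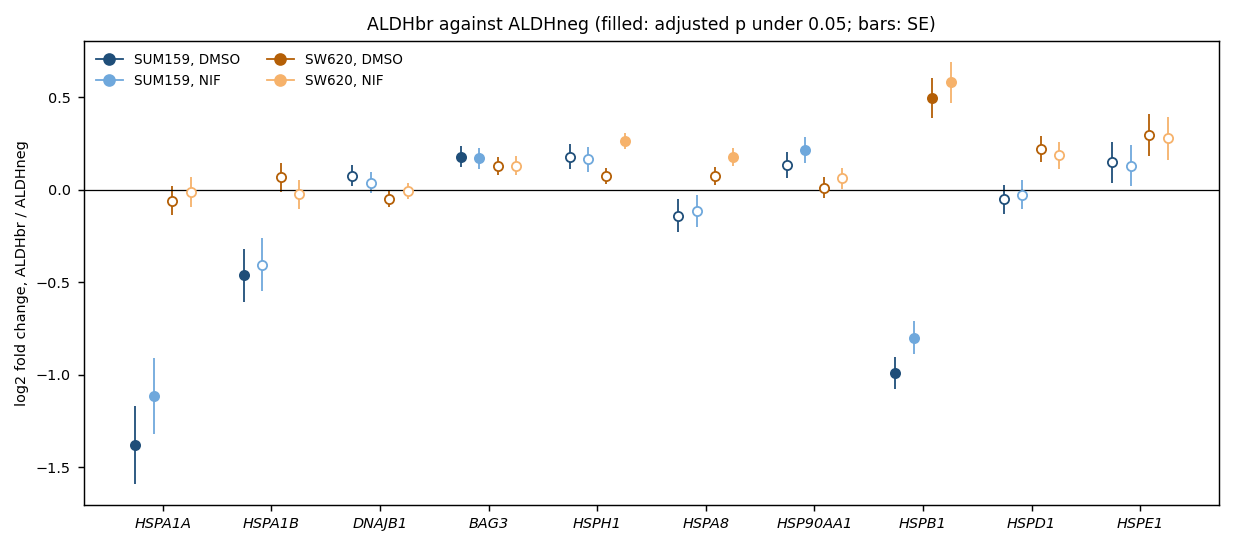
Log2 fold change of ALDHbr over ALDHneg cells for each of the 10 genes, by line and treatment (bars: standard error; filled points: adjusted p under 0.05, edgeR). HSPA1A and HSPB1 lie below 0 in SUM159 under both treatments, and HSPB1 lies above 0 in SW620 under both.

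In SW620 the contrast ran the other way for HSPB1. Under DMSO it was the 1 gene called of the 10, higher in ALDHbr cells by 0.49 ± 0.11 (adjusted p = 0.0115), where 5.45% of genes were called higher and 5.86% lower. That call was lost without ALDHbr DMSO replicate 1 (0.0592) or 3 (0.0574) or ALDHneg DMSO replicate 2 (0.0619). Leaving out the library that stood apart, ALDHbr DMSO replicate 2, gave 4 genes called, all higher, where 18.6% of genes were then called higher and 20.2% lower, with HSPD1 at 0.29 (0.000512) and HSPE1 at 0.41 (0.00208) among them. Without ALDHbr DMSO replicate 1 these were at 0.16 (0.246) and 0.19 (0.376). With all libraries HSPD1 was at 0.22 ± 0.071 (adjusted p = 0.0595) and HSPE1 at 0.30 ± 0.11 (adjusted p = 0.0988). Under NIF, in other libraries, 3 genes were higher in ALDHbr cells and none lower, against 3.41% and 3.26% of genes. They were HSPB1 (0.58 ± 0.11, adjusted p = 0.00542), HSPH1 (0.26 ± 0.045, adjusted p = 0.00236) and HSPA8 (0.18 ± 0.049, adjusted p = 0.0485). The HSPA8 call was lost in 9 alternatives (adjusted p up to 0.23). HSPD1 and HSPE1 were at 0.19 ± 0.071 (adjusted p = 0.147) and 0.28 ± 0.12 (adjusted p = 0.184). HSPA1A and HSPA1B overlapped between the SW620 populations under both treatments. The contrasts under DMSO and NIF share no library, whereas each shares libraries with the NIF comparisons above. Beside these results, 6 of 12 immediate early genes were higher in SW620 ALDHbr cells under DMSO and 4 under NIF, with none lower. Of 10 colon epithelial markers 3 and 4 were higher and none lower, and of 8 mesenchymal markers tested 1 was higher and 4 were lower under each treatment. Summed CPM in ALDHbr and ALDHneg cells under DMSO were 566 to 634 and 548 to 561 for the first list, 13107 to 15933 and 13714 to 14557 for the second and 111 to 126 and 162 to 174 for the third. Their part in the result was not tested. Whether the HSPB1 difference between populations differed between the lines was not tested.

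The 2 lines differed in the level of nearly all of the 10 under DMSO. These values come from a fit that scaled all 24 libraries together, whereas the CPM given above were scaled within each line, so that ratios of CPM between lines need not match them. In ALDHbr cells 8 were higher and 1 lower in SW620 than in SUM159, where 39.6% of genes were called higher and 41.7% lower. In ALDHneg cells 7 were higher and 3 lower, against 38.5% and 42.7%. HSPA1A differed most, by 2.71 ± 0.18 (adjusted p = 8.21e-13) in ALDHbr and 1.39 ± 0.17 (adjusted p = 4.74e-08) in ALDHneg cells, followed in ALDHbr cells by HSPA1B (1.55 ± 0.13, adjusted p = 6.96e-11). HSPD1 was higher in SW620 by 0.98 ± 0.079 and 0.71 ± 0.078, HSPE1 by 0.86 ± 0.12 and 0.71 ± 0.12, HSPH1 by 0.94 ± 0.060 and 1.04 ± 0.060 and DNAJB1 by 0.69 ± 0.050 and 0.82 ± 0.050. BAG3 was lower in SW620 in both populations, at -0.74 ± 0.053 and -0.69 ± 0.053. HSPB1 was higher in SW620 ALDHbr cells (0.44 ± 0.11, adjusted p = 0.000623) and lower in SW620 ALDHneg cells (-1.05 ± 0.11, adjusted p = 2.86e-09). HSPA8 was called in ALDHneg cells alone (-0.23 ± 0.075, adjusted p = 0.0084). HSP90AA1 was at 0.22 ± 0.064 in ALDHbr cells and 0.35 ± 0.064 in ALDHneg cells. Scaling by library size alone shifted the median of all genes by -0.15 and -0.17 in these contrasts, and the HSP90AA1 difference in ALDHbr cells was then 0.068 (0.234).

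The 10 genes were set beside 64 other genes, listed by class with earlier results of these data known. These were genes of the heat shock and chaperone system and 6 companion stress genes, HMOX1 and SQSTM1 among them, that were not listed as chaperones. In SUM159 ALDHbr cells 3 of 62 tested rose under NIF and none fell, beside 0.936% and 2.23% of all genes. They were HMOX1, the haem-degrading enzyme of the oxidative stress response, SQSTM1, an autophagy receptor, and HSPB8, the small heat shock protein that works with BAG3. HMOX1 went from 234 ± 74.2 to 868 ± 209 CPM (SD, n = 3; log2 1.89 ± 0.22, adjusted p = 0.000249), SQSTM1 changed by 0.42 ± 0.074 (adjusted p = 0.00545) and HSPB8 by 0.23 ± 0.054 (adjusted p = 0.0312). In ALDHneg cells of SUM159 2 rose, beside 1.1% of all genes, HMOX1 (1.42 ± 0.22, adjusted p = 0.00249) and HSPB8 (0.29 ± 0.054, adjusted p = 0.00891). HSF1 itself was at 132 ± 14.9 CPM under DMSO and 152 ± 9.75 CPM under NIF in SUM159 ALDHbr cells, and was called in none of the 4 NIF comparisons (log2 from -0.043 to 0.20). HSF2, HSPA6, HSP90AB1 and HSPA9 were not called in SUM159 either, with log2 values of -0.19, 0.85, 0.043 and 0.038 in ALDHbr and -0.19, 0.76, 0.059 and 0.051 in ALDHneg cells.

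In SW620 ALDHbr cells 14 of 61 rose and 25 fell, beside 21.4% and 21.9% of all genes, and in ALDHneg cells 16 rose and 21 fell, beside 22.3% and 22.7%. The cytosolic chaperonin TRiC, which folds actin and tubulin, had all 8 subunit genes lower in ALDHbr cells, from CCT3 (-0.15 ± 0.057, adjusted p = 0.0456) to TCP1 (-0.40 ± 0.071, adjusted p = 0.000445), and 5 of 8 lower in ALDHneg cells. Of the 10 Hsp90 and co-chaperone genes 7 fell in each population and none rose. HSP90AB1, the constitutive Hsp90, changed by -0.26 ± 0.061 (adjusted p = 0.00365) in ALDHbr and -0.21 ± 0.061 (adjusted p = 0.0111) in ALDHneg cells, and CHORDC1 by -0.48 ± 0.051 (adjusted p = 4.06e-06) in ALDHneg cells. Among 7 J protein genes 4 rose in each population, with 1 fall in ALDHbr and 2 in ALDHneg cells. DNAJB4 rose by 0.84 ± 0.11 (adjusted p = 3.85e-05) in ALDHbr cells, from 10.8 ± 1.69 to 19.4 ± 0.562 CPM, and DNAJB2, which delivers clients to the proteasome, by 0.87 ± 0.071 (adjusted p = 2.46e-07) in ALDHneg cells.

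The mitochondrial genes went in both directions. Of 11 mitochondrial chaperone and protease genes outside the 10, 4 rose in both SW620 populations, HSPA9, LONP1, CLPX and GRPEL2, while TRAP1 fell in both and CLPP in ALDHbr cells. Of all genes, 21.4% were called higher and 21.9% lower in ALDHbr cells, and 22.3% and 22.7% in ALDHneg cells. HSPA9, the Hsp70 of the matrix, changed by 0.13 ± 0.047 (adjusted p = 0.0363) in ALDHbr and 0.25 ± 0.047 (adjusted p = 0.000513) in ALDHneg cells, opposite in direction to HSPD1 and HSPE1. TRAP1, the mitochondrial Hsp90, changed by -0.44 ± 0.063 (adjusted p = 6.92e-05) in ALDHbr cells. Among the other Hsp70 and Hsp110 genes HSPA6, a strictly inducible Hsp70, rose at a low level, from 2.58 ± 0.352 to 4.33 ± 0.464 CPM in ALDHbr cells (0.74 ± 0.14, adjusted p = 0.000767) and by 0.61 ± 0.15 (adjusted p = 0.00467) in ALDHneg cells, while HSPA14, HSPA4 and HSPA4L fell in both. HSPA14, a ribosome-associated Hsp70, changed by -0.58 ± 0.089 (adjusted p = 0.000123) and -0.59 ± 0.090 (adjusted p = 9.85e-05), and HSPB11 by -0.52 ± 0.089 (adjusted p = 0.000323) and -0.53 ± 0.088 (adjusted p = 0.000205). The HMOX1 change was 1.75 ± 0.073 (adjusted p = 3.69e-10) in ALDHbr and 1.83 ± 0.073 (adjusted p = 1.99e-10) in ALDHneg cells, and that of SQSTM1 1.67 ± 0.057 (adjusted p = 5.31e-11) and 1.74 ± 0.057 (adjusted p = 3.04e-11). HSF2 rose in ALDHneg cells (0.39 ± 0.094, adjusted p = 0.0039) and was at -0.032 ± 0.10 (adjusted p = 0.814) in ALDHbr cells.

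**Figure D4:**
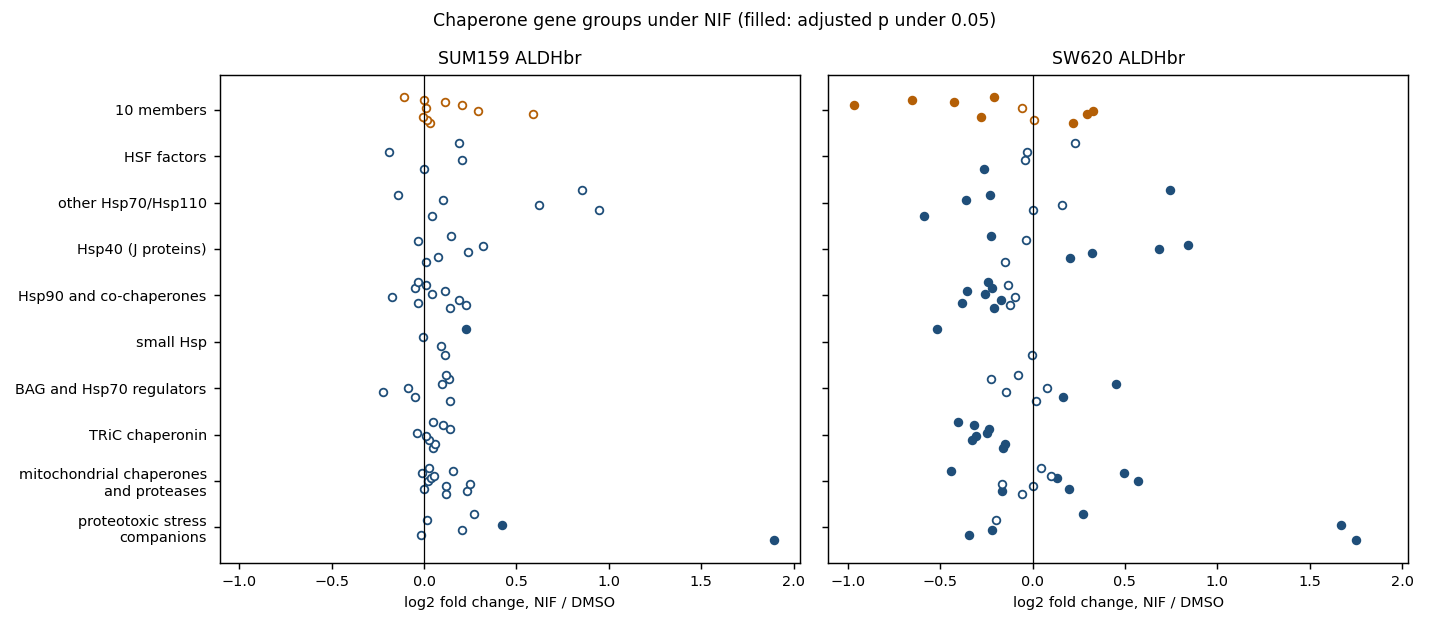
Log2 fold change of NIF over DMSO in ALDHbr cells of SUM159 (left) and SW620 (right) for the 10 genes (orange) and 64 other chaperone and stress genes by class (blue), 1 point a gene tested, filled where adjusted p was under 0.05 (edgeR). In SW620 all 8 TRiC genes and 7 of 10 Hsp90 and co-chaperone genes are filled and below 0, whereas in SUM159 3 points of the 62 other genes are filled.

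Finally, the genes most like 3 of the 10 were sought by Pearson r of log2 CPM over the 24 libraries after each line's mean was subtracted, as a description with no test, since the libraries share lines, populations and treatments. HSPA1A was closest to SGK1 (r = 0.95), SNAPC1 (0.92) and MAP2K3 (0.91). HSPD1 was closest to LDHB (0.96), RANBP1 (0.96) and TRIAP1 (0.96). DNAJB1, which varied little, reached at most 0.69 with CMTM7, followed by AASDHPPT (0.66) and LZIC (0.66). HSPA1A and HSPA1B had an r of 0.93 across the 12 SUM159 and 0.92 across the 12 SW620 libraries, which reads shared between the copies can raise.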

How the data were processed

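Total RNA from sorted cells was sequenced from stranded libraries. The authors deposited whole-number read counts per gene, without normalization. The submitters' processing notes name FastQC, STAR and GRCh38. The counting tool, its strand setting and its handling of shared reads are not given in the sources used here, so that near-identical copies and overlapping genes are uncertain. Of 28307 genes, 4579 had no count.

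Each line was fitted apart (12 libraries, 4 groups) in R 4.3.3 with edgeR 4.0.16, after filterByExpr and TMM normalization, by the quasi-likelihood test, with p-values adjusted over all genes tested (Benjamini-Hochberg, threshold 0.05). Comparisons between lines used all 24 libraries. CPM used library sizes TMM-adjusted within each line, and log2 CPM a prior count of 2. Errors of log2 values are standard errors, and intervals are 95%. In each of 24 pairs of replicates the counts differed by more than sampling noise (chi-square of 1.97 to 46.1 for each gene on average).

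Replicate numbers come from the sample titles. After group means were removed, SUM159 libraries with 1 number correlated at 0.18 to 0.42, above 0.1 in 18 of 18 pairs, and these libraries were taken as paired. In SW620 1 of 18 pairs passed 0.1.

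The 10 genes and all lists were chosen with earlier results of these data known. Beside the 10, the rule named the 3 highest and 3 lowest called genes of the other lists in each NIF comparison (mean log2 CPM of at least 1), HSF1, HSF2, HSPA9, HSP90AB1 and HSPA6 in any case, and for likeness the 3 closest genes. The other chaperone, immediate early and gene class members named, and the TRiC range, were added after their values were seen.

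As alternatives the fits were repeated in DESeq2 1.42.0, with other filters (none, or 10 counts in every library), with scaling by RLE or by library size, with other sample sets, with the replicate block, without each library in turn, and with HSPA1A and HSPA1B summed. On simulated counts for NIF against DMSO with 200 genes changed by a log2 of 1, edgeR recovered 181 of 200 in SUM159 ALDHbr cells (14768 genes, 11 false calls) and 193 in SW620 ALDHbr cells (13783 genes, 15 false calls). Recovery of smaller changes, such as those of most of the 10 genes under NIF, was not simulated. The simulated libraries carried no replicate pairing.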

Additional observations from a re-analysis of the deposited data

Results flagged for a closer look

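The NIF response of 8 gene and population combinations differed between the lines by the test of the difference itself (SW620 minus SUM159, edgeR with all 24 libraries). In ALDHbr cells these were HSPB1 (-1.17, adjusted p = 3.49e-06), HSP90AA1 (-0.28, 0.027), HSPD1 (-0.54, 0.000827) and HSPE1 (-0.65, 0.00736). In ALDHneg cells they were HSPH1 (-0.29, 0.0122), HSPB1 (-1.06, 1.19e-05), HSPD1 (-0.47, 0.00261) and HSPE1 (-0.64, 0.00804). Of all genes, 10.7% were called lower and 12.4% higher in ALDHbr cells, and 10.5% and 11.9% in ALDHneg cells. The HSP90AA1 call in ALDHbr cells was lost when any of 8 of the 12 libraries was left out (adjusted p up to 0.0929).

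HSPB1 ran opposite ways in the lines between ALDHbr and ALDHneg cells, with no overlap of libraries in any of the contrasts. Under DMSO it was -0.99 in SUM159 and 0.49 in SW620, and under NIF -0.80 and 0.58. DNAJB1 under DMSO, at 0.077 in SUM159 and -0.047 in SW620, had the same pattern by ranges of libraries alone, and neither value passed the threshold (adjusted p = 0.354 and 0.475). For both genes the difference between the lines was not tested.

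Groups of 3 libraries were not searched for single outlying values.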

How the results depend on the processing

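Of 140 differences (10 genes in 14 comparisons), 56 were called and none of these changed sign under any alternative. Of the uncalled ones 34 did, from a main log2 value of at most 0.086 in size. DNAJB1 in SW620 ALDHbr cells under NIF, at 0.0094, was -0.020 with library-size scaling and ran from -0.0073 (without ALDHbr DMSO replicate 2) to 0.026 with a library left out. Of 1177 recomputed values of 80 differences, 1078 kept direction and side of the threshold, 54 lost and 43 gained a call. The number of the 10 genes called in SUM159 ALDHbr cells under NIF was 0, and became 1 with no filter on low counts, 2 with the replicate block and 2 in a fit of only the groups compared. Between SUM159 ALDHbr and ALDHneg cells under DMSO it was 4, became 8 with the replicate block and ran from 2 to 4 with a library left out, and under NIF it was 4 and ran from 2 to 3. Between the SW620 populations under DMSO it was 1, became 2 with DESeq2, library-size scaling or no filter, and ran from 0 to 4 with a library left out. The counts in the other comparisons stayed within 1.5 times of the main count. Shares of all genes called were computed for the SUM159 block fits that called any of the 10, and are given in the report. The fit without SW620 ALDHbr DMSO replicate 2 also has such shares in the report, for the contrast of populations under DMSO. For the other alternatives they were not computed, so that these counts do not set the 10 apart from all genes. The block changed no call in SUM159 beyond those given in the report. In SW620, where pairing by number was not seen (2 of 12 libraries correlated best with their own number), the block left 8 and 9 genes called for NIF against DMSO and 2 of 3 between the populations under NIF.

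Counts over all genes moved by over 1.5 times as follows. For NIF in SUM159 ALDHbr cells, 473 became 875 with DESeq2, 725 with all 24 libraries and 1994 with the block, and ran from 222 to 322 with a library left out. In SUM159 ALDHneg cells 493 became 884, 743 and 1970, and 292 in a fit of only the groups compared, with 192 to 584 when a library was left out. Between the SUM159 populations the block raised 3432 to 5388 under DMSO and 3281 to 5270 under NIF. Between the SW620 populations under DMSO, 1577 became 729 in a fit of only the groups compared and ran from 712 to 5487 (without ALDHbr DMSO replicate 2) with a library left out, and under NIF 931 ran from 494 to 996. The interaction in SUM159 gave 0 genes, and 1 to 6 under 4 alternatives, and in SW620 1 gene, and 2 to 29 under 5 and 27 without ALDHbr DMSO replicate 2. The cause was not tested. Depth did not limit these genes, whose lowest count in a library was 429, but 3 libraries a group limit the precision.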
